A study of Arabidopsis thaliana with 24 samples.

Results

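Shoots of Arabidopsis thaliana seedlings that lack both the peroxisomal catalase CAT2 and the transcription factor SHORT-ROOT (cat2shr) were compared with shoots that lack CAT2 alone (cat2), before any stress was applied. The comparison holds 6 of the 24 libraries of the series, 3 of cat2shr and 3 of cat2, chosen by their labels, and covers 20347 tested genes. All plants were 3-week-old seedlings of the Columbia-0 ecotype, grown on agar medium with sucrose and myo-inositol in long days. At 0 h the plates were still sealed with gas-permeable surgical tape, and the photorespiratory stress (sealing with Parafilm plus continuous light, sampled at 24 h) had not begun. The shr single mutant and wild-type Col-0 at 0 h (3 libraries each) gave the same SHR contrast in plants with functional CAT2, and cat2shr and cat2 at 24 h (3 libraries each) gave it after the stress. The reference of the main contrast is therefore not wild type: cat2 and cat2shr both carry the cat2 mutation. Each genotype is given as 1 line, the alleles are not named in the labels, and whole shoots mix all leaf and stem cell types, so fewer cells of a type and less RNA per cell cannot be told apart. The labels do not say whether replicates came from separate plates or plant batches, so the spread behind each p-value is that between libraries and may be technical.

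CAT2 removes the hydrogen peroxide that photorespiration releases in leaf peroxisomes, and plants without it show signs of oxidative stress when photorespiration is active. SHR is a GRAS-family transcription factor made in vascular tissue that moves into the adjoining cell layer, where it works with SCARECROW (SCR) in specifying the root endodermis and, in leaves, the bundle sheath. Roots without SHR stay short and their endodermis is defective, the layer through which nutrients reach the xylem and the shoot. The shoot reports a shortage of phosphate, sulfate or iron through well-known gene sets: the transcription factor PHR1 and its SPX inhibitors for phosphate, the LSU and SDI genes for sulfur, and the subgroup Ib bHLH factors for iron. Jasmonate signalling starts when the hormone's conjugate brings about the destruction of the JAZ repressors, which frees MYC2 and its relatives.

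The 6 libraries held 26852463 to 30564018 counted reads, and the 24 libraries 26426603 to 40107051. Levels are given as CPM, the read count scaled by the library total with TMM factors, and they are not divided by gene length, so they compare libraries and not genes. A gene is said to have risen or fallen when edgeR's quasi-likelihood test, fitted over all 24 libraries, gave a Benjamini-Hochberg adjusted p under 0.05 over all tested genes, and every adjusted p below comes from that test. Fold changes are log2 values, cat2shr over cat2, with the standard error (SE). The first principal component of the 6 libraries carried 60.2% of the variance and separated the genotypes, with cat2shr at 46.8 to 49.9 and cat2 at −49.9 to −48.2. The cat2shr libraries lay farther from one another than the cat2 libraries did: 781 to 1021 genes differed by over 2-fold from the other replicates in a cat2shr library, against 466 to 692 in a cat2 library. Among marker lists, root markers summed to 0.876 to 5.15 CPM in cat2shr, against 0.604 to 1.41 CPM in cat2, and mesophyll markers to 27198 to 34523 CPM, against 32313 to 33032 CPM. The stem-cell genes WUS and CLV3 and the endodermal regulator MYB36 had no counts in any of the 6 libraries.

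SHR levels matched the genotype labels in every library. SHR had 0.519, 0.652 and 0.584 CPM in cat2shr, against 8.48, 7.01 and 7.93 CPM in cat2 (log2 fold change −3.73 ± 0.15 SE, adjusted p = 4.95e-12). Its mean was 1.04 CPM in shr and 9.96 CPM in Col-0, and at 24 h 0.466 CPM in cat2shr and 5.31 CPM in cat2. CAT2, which both genotypes lack, had 26.3, 17.4 and 17.4 CPM in cat2shr, against 13.1, 18.4 and 20.9 CPM in cat2 and did not pass the test (log2 0.22, adjusted p = 0.608). For scale, CAT2 averaged 209 CPM in shr and 374 CPM in Col-0, so all 6 libraries were low in it. CAT2 was itself called lower in shr against Col-0 (log2 −0.84, adjusted p = 0.0252). The SHR contrast with functional CAT2 therefore includes a fall of CAT2, and the part of that fall in the differences between backgrounds was not tested.

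Loss of SHR in the cat2 background moved a large share of the shoot transcriptome: 7105 of 20347 genes passed the test (34.9%), 3491 of them higher (17.2%) and 3614 lower (17.8%) in cat2shr. Most changes were small. Those of at least 2-fold numbered 811 higher (3.99%) and 889 lower (4.37%), and the median log2 fold change of all tested genes was −0.01. In the raw ordering, 8907 genes (43.8%) had no overlap between the 3 cat2shr and the 3 cat2 libraries, 4277 higher (21.0%) and 4630 lower (22.8%). The called genes were spread over the genome, at 34.5 to 35.5% of the genes of each nuclear chromosome, and made up 33% of the 100 tested genes nearest to SHR and 38% of the 100 nearest to CAT2.

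**Figure D1:**
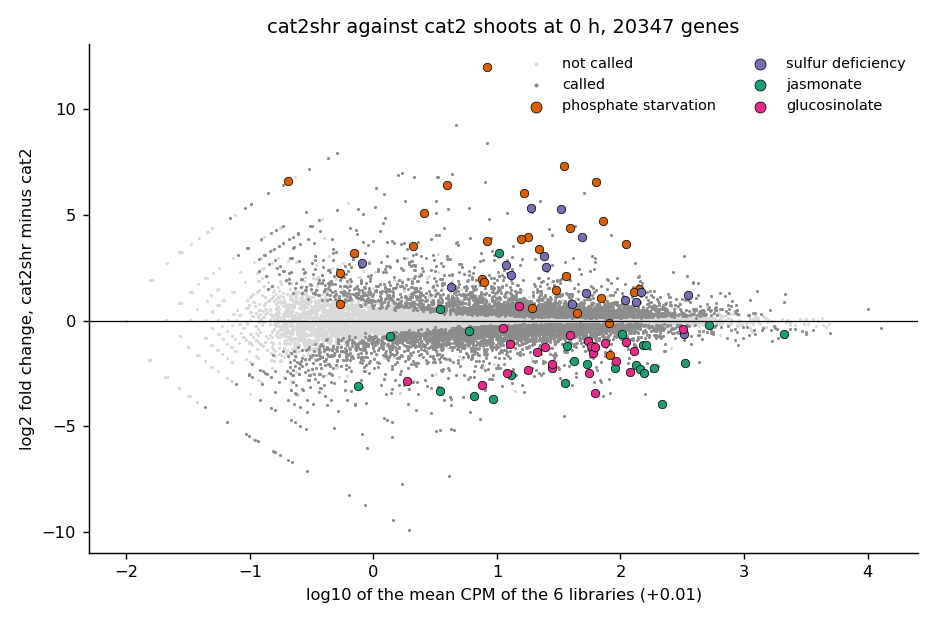
Each point is 1 of the 20347 tested genes, with the log10 of its mean CPM over the 6 libraries (plus 0.01) across and its log2 fold change, cat2shr over cat2 at 0 h, upward. Genes of the phosphate, sulfur, jasmonate and glucosinolate lists are coloured: the phosphate and sulfur genes lie almost all above 0, and the jasmonate and glucosinolate genes almost all below it.

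Among the genes averaging at least 5 CPM whose libraries did not overlap, the largest rises were led by genes of phosphate shortage. IPS1 (AT3G09922), a non-coding RNA that captures the microRNA directed against PHO2, had 20.9, 12.7 and 16.3 CPM in cat2shr, and no counts in cat2, which is at least 503-fold higher against a floor of 3 counts over the cat2 group. AT1G23110, annotated as a fold protein, had 22.2, 12.5 and 14.7 CPM in cat2shr, against 0.0335, 0 and 0.0959 CPM in cat2 (log2 fold change 8.42 ± 0.44 SE, adjusted p = 9.78e-11). The pyrophosphatase gene PS2, the non-coding RNA AT4 and the galactolipid synthase MGD3 were also among the 12 largest rises, together with the sulfur-responsive BGLU28 and LSU1, and their values follow under those groups. AT5G20790, an uncharacterized protein, had 55.4, 31.2 and 44.8 CPM in cat2shr, against 0.503, 0.607 and 1.47 CPM in cat2 (log2 fold change 5.65 ± 0.28 SE, adjusted p = 5.73e-11), and its means in shr and Col-0 were 61.5 and 0.701 CPM.

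The other large rises were more variable between the cat2shr libraries. MIOX2, a myo-inositol oxygenase, had 45.2, 107 and 147 CPM in cat2shr, against 1.07, 0.809 and 2.59 CPM in cat2 (log2 fold change 6.05 ± 0.65 SE, adjusted p = 2.63e-06). The metal-resistance gene PCR1 had 81.3, 6.85 and 24.1 CPM in cat2shr, against 0.168, 2.22 and 0.799 CPM in cat2 (log2 fold change 5.14 ± 1.15 SE, adjusted p = 0.00229), with its highest value in cat2shr replicate 1. DIN2, a beta-glucosidase of dark-induced leaves, had 13.4, 32.1 and 1.82 CPM in cat2shr, against 0.201, 0.135 and 0.16 CPM in cat2, and the sucrose transporter SUC7 had 2.01, 26.5 and 6.21 CPM in cat2shr, against 0.134, 0.573 and 0.16 CPM in cat2. SUC7 has close sequence relatives among which counted reads could be shared, so its values are uncertain. In both of these genes the highest value was that of cat2shr replicate 2, and neither passed the test without it (DIN2 5.49, adjusted p = 0.0568, and SUC7 3.81, adjusted p = 0.0585).

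The largest falls were led by other genes. AT1G47860, an uncharacterized protein, had 0.422, 0.616 and 0.652 CPM in cat2shr, against 12, 12.9 and 17.3 CPM in cat2 (log2 fold change −4.64 ± 0.25 SE, adjusted p = 1.22e-10), and it was also low in shr (mean 0.534 CPM) against Col-0 (11.5 CPM). AT1G73120, annotated as an F-box/RNI superfamily protein, had 1.3, 3.95 and 3.57 CPM in cat2shr, against 58.2, 75.9 and 64.9 CPM in cat2 (log2 fold change −4.50 ± 0.33 SE, adjusted p = 1.74e-08). Its means in shr and Col-0 were 0.203 and 0.59 CPM, so its level stood high in the cat2 libraries and in no other group at 0 h. AT1G66100, a plant thionin, had 8.79, 12.3 and 11.8 CPM in cat2shr, against 92.5, 146 and 159 CPM in cat2 (log2 fold change −3.59 ± 0.29 SE, adjusted p = 7.07e-08), and MSRB6, a methionine sulfoxide reductase, had 13.4, 13.4 and 14.7 CPM in cat2shr, against 128, 163 and 164 CPM in cat2 (log2 fold change −3.45 ± 0.40 SE, adjusted p = 7.01e-06). THA2, a threonine aldolase, had 0.778, 2.61 and 1.13 CPM in cat2shr, against 13.7, 15.6 and 13.9 CPM in cat2 (log2 fold change −3.27 ± 0.27 SE, adjusted p = 4.51e-08), with means of 1.63 CPM in shr and 13.8 CPM in Col-0. The remaining falls of this group were AT1G13650 (−4.31), the terpene synthase TPS03 (−3.36), and 5 genes of jasmonate or glucosinolate metabolism or of the oxygenase family described below: JAZ9, JAZ5, CYP94C1, CYP79B3 and AT5G05600.

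**Figure D2:**
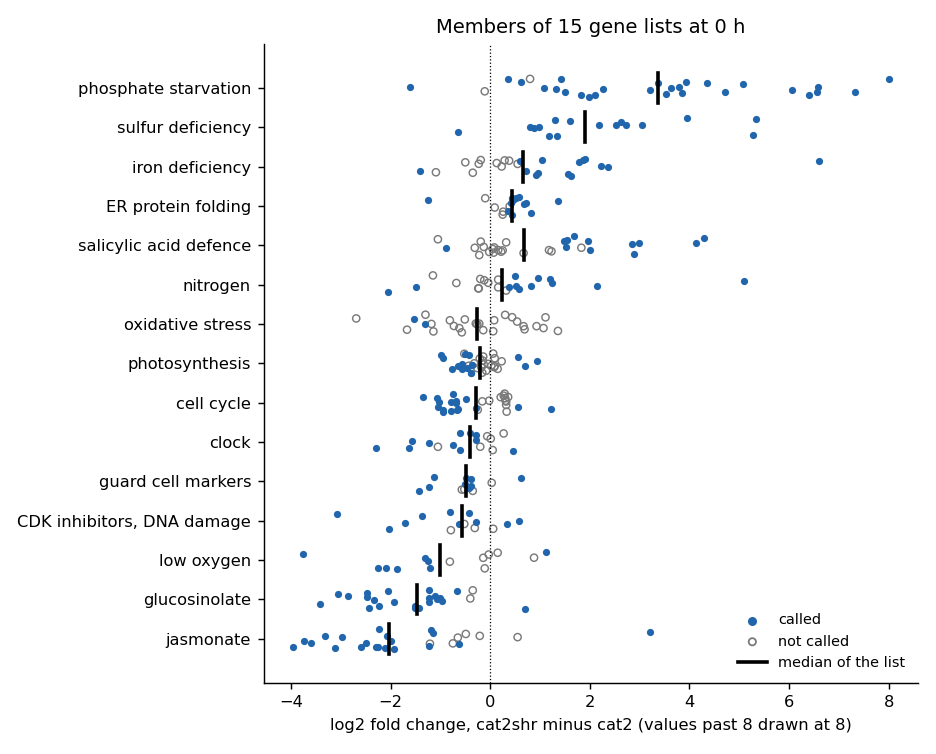
Log2 fold changes, cat2shr over cat2 at 0 h, of the members of 15 gene lists, with 1 point per tested gene, filled where the gene passed the test and open where it did not. The bar is the list's median, and values past 8 are drawn at 8: phosphate (median 3.37) and sulfur (1.90) lie highest, jasmonate (−2.03) and glucosinolate (−1.47) lowest.

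Phosphate-starvation genes formed the strongest block. Of 33 listed genes 29 were tested (PHT1;2, PHT1;3, PHT1;8 and NPC5 were too low), and of these 26 rose and 1 fell in cat2shr, against the 17.2% and 17.8% of all tested genes. The list's median was 3.37 (all genes −0.01), and with any 1 library left out 25 or 26 still rose. The ordering below follows the pathway, beginning with the genes that sense and signal phosphate, then uptake and transport, lipid replacement and phosphate recovery.

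The genes that act around the regulator PHR1 moved, while PHR1 did not pass the test. SPX1 (AT5G20150), an SPX-domain protein that restrains PHR1 when phosphate is plentiful, had 183, 155 and 279 CPM in cat2shr, against 14.8, 16.7 and 18.4 CPM in cat2 (log2 fold change 3.63 ± 0.23 SE, adjusted p = 1.77e-09). SPX3 (AT2G45130), of the same family, had 9.41, 5.4 and 8.69 CPM in cat2shr, against 0.101, 0.101 and 0.064 CPM in cat2 (log2 fold change 6.41 ± 0.37 SE, adjusted p = 2.37e-10). AT4 (AT5G03545), a non-coding RNA related to IPS1, had 154, 108 and 115 CPM in cat2shr, against 1.14, 1.35 and 1.47 CPM in cat2 (log2 fold change 6.57 ± 0.26 SE, adjusted p = 5.73e-12). All of these values are separated by wide gaps between the genotypes. PHO2 (AT2G33770), the ubiquitin-conjugating enzyme that lowers the amount of phosphate transporters, was the member that fell: it had 40.9, 32.1 and 48.7 CPM in cat2shr, against 134, 123 and 116 CPM in cat2 (log2 fold change −1.61 ± 0.14 SE, adjusted p = 5.88e-08). PHR1 had 63, 87.7 and 83.4 CPM in cat2shr, against 75.8, 89.2 and 88.4 CPM in cat2 (log2 −0.11, adjusted p = 0.44).

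Transporters rose together with these signals. PHT1;4 (AT2G38940), a high-affinity phosphate transporter, had 40.6, 27 and 33.2 CPM in cat2shr, against 1.88, 1.82 and 2.85 CPM in cat2 (log2 fold change 3.94 ± 0.18 SE, adjusted p = 1.3e-11). PHO1;H1 (AT1G68740), a relative of the xylem-loading exporter PHO1, had 36.1, 43.9 and 39.1 CPM in cat2shr, against 4.39, 3.74 and 3.36 CPM in cat2 (log2 fold change 3.37 ± 0.24 SE, adjusted p = 7.17e-09). PHT1;5 rose by 3.20, PHT1;1 by 2.27, PHO1 by 1.98 and PHF1, which lets the PHT1 proteins leave the endoplasmic reticulum, by 0.61. PHT1;9 was detected at 0.172 to 0.519 CPM in cat2shr and had no counts in cat2. G3PP1 (AT3G47420), annotated as a putative glycerol-3-phosphate transporter, had 60.1, 47.1 and 68.6 CPM in cat2shr, against 7.21, 17.3 and 16.6 CPM in cat2 (log2 fold change 2.1 ± 0.28 SE, adjusted p = 2.14e-05).

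The enzymes that replace membrane phospholipids with lipids free of phosphorus were higher in all 3 cat2shr libraries than in any cat2 library. SQD1 (AT4G33030) and SQD2 (AT5G01220) make sulfolipid. SQD1 had 243, 185 and 195 CPM in cat2shr, against 72.7, 72.7 and 74.5 CPM in cat2 (log2 fold change 1.5 ± 0.10 SE, adjusted p = 9.95e-10), and SQD2 had 246, 154 and 153 CPM in cat2shr, against 74.8, 75.6 and 69.9 CPM in cat2 (log2 fold change 1.33 ± 0.16 SE, adjusted p = 7.66e-06). MGD3 (AT2G11810), a synthase of the galactolipids used outside photosynthetic membranes under phosphate shortage, had 50, 20.3 and 27.6 CPM in cat2shr, against 0.637, 0.303 and 0.512 CPM in cat2 (log2 fold change 6.06 ± 0.41 SE, adjusted p = 6.26e-09), and its relative MGD2 rose by 1.82. PLDP2 (AT3G05630) and NPC4 (AT3G03530) are phospholipases. PLDP2 had 36.1, 23.3 and 27.6 CPM in cat2shr, against 1.98, 1.85 and 2.17 CPM in cat2 (log2 fold change 3.85 ± 0.17 SE, adjusted p = 8.22e-12), and NPC4 rose by 3.52. GDPD1 (AT3G02040), a glycerophosphodiester phosphodiesterase of the same breakdown route, had 70.7, 54 and 99.3 CPM in cat2shr, against 4.29, 2.87 and 3.71 CPM in cat2 (log2 fold change 4.36 ± 0.24 SE, adjusted p = 2.2e-10).

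Enzymes that free phosphate from organic compounds were also higher. PAP17 (AT3G17790), a purple acid phosphatase, had 142, 96.8 and 176 CPM in cat2shr, against 4.33, 6.1 and 5.31 CPM in cat2 (log2 fold change 4.72 ± 0.25 SE, adjusted p = 1.72e-10). PS2 (AT1G73010), an inorganic pyrophosphatase, had 70.8, 49.8 and 87.2 CPM in cat2shr, against 0.537, 0.0337 and 0.704 CPM in cat2 (log2 fold change 7.32 ± 0.49 SE, adjusted p = 7.17e-09). RNS1, a ribonuclease, had 4.99, 6.56 and 3.4 CPM in cat2shr, against 0.168, 0.169 and 0.0959 CPM in cat2 (log2 fold change 5.08 ± 0.73 SE, adjusted p = 4.59e-05). PAP12 rose by 1.08 and PAP10 by 0.35, and PAP10 did not pass the test without any 1 of 4 libraries (0.26 and 0.29 without cat2 replicates 1 and 3, 0.29 and 0.36 without cat2shr replicates 1 and 2). PAP22 (0.80) did not pass the test.

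**Figure D3:**
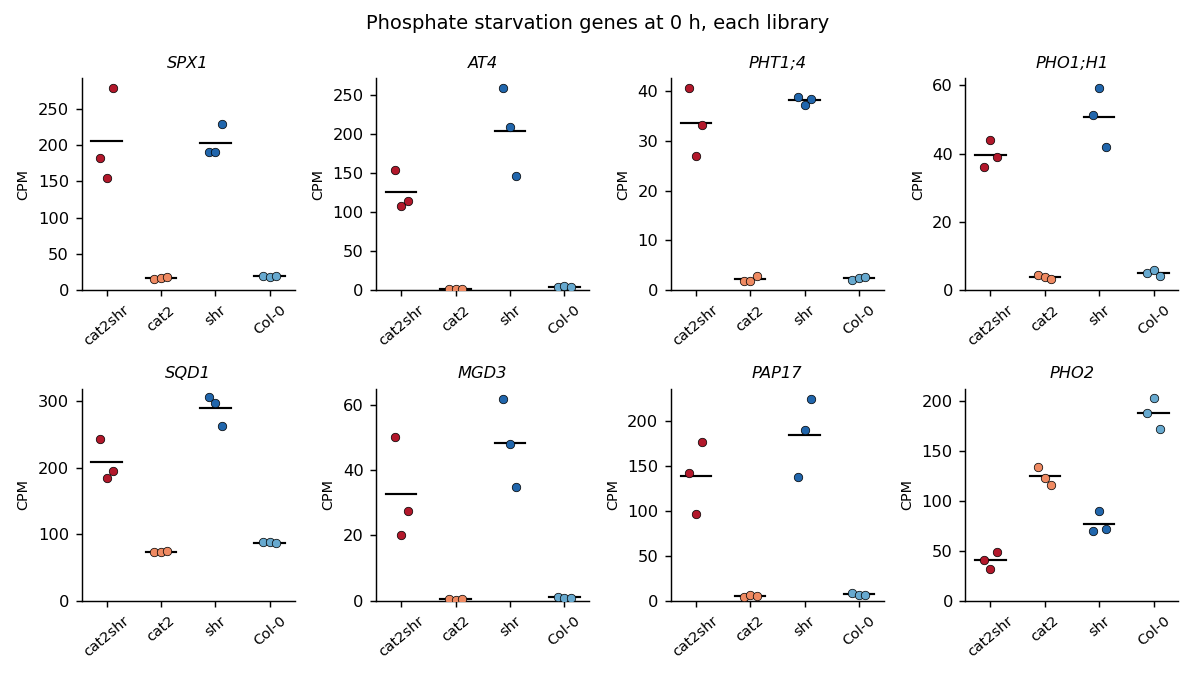
CPM per library at 0 h of SPX1, AT4, PHT1;4, PHO1;H1, SQD1, MGD3, PAP17 and PHO2, with 1 point per library and a line at the mean, in the order cat2shr, cat2, shr and Col-0. The first 7 genes stand high in cat2shr and shr and low in cat2 and Col-0, and PHO2 does the reverse, with 32.1 to 48.7 CPM in cat2shr against 116 to 134 CPM in cat2.

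The same genes had similar values where CAT2 was functional. Of the 29 tested phosphate genes 27 were higher and 2 lower in shr against Col-0 (45.3% of all tested genes passed that test, 21.3% higher and 24.1% lower), with a median of 3.36. Mean AT4 was 205 CPM in shr and 4.12 CPM in Col-0, mean SPX1 203 and 19 CPM, and mean SQD1 289 and 87.5 CPM. The SHR effects of the 2 backgrounds were compared through their difference, which 4.95% of all tested genes passed. In this list it was past the threshold for PEPC1, a phosphatase-related gene, at −3.24: PEPC1 had 14.6, 11.9 and 20.3 CPM in cat2shr, against 2.11, 0.573 and 0.704 CPM in cat2. This call was lost without Col-0 replicate 1 or 2, without cat2 replicate 1 and when only the 4 groups at 0 h were fitted. At 24 h of stress 26 of the 29 were higher and 1 lower in cat2shr against cat2 (55.1% of all genes passed, 27.0% higher and 28.1% lower), with a median of 3.40.

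Upstream sequence was inspected for the element bound by PHR1, the P1BS site, spelled GNATATNC, which reads the same on both strands. In the 250 bases before the annotated transcript start, 7 of the 26 phosphate genes that rose hold it (26.9%), against 1087 of 19972 tested genes with a window (5.44%). It was found before 82 of 786 genes higher by at least 2-fold (10.4%) and before 42 of 862 genes lower by at least 2-fold (4.87%). A match is a stretch of letters and not a shown binding site, and the other members may hold one outside this window. The windows of these 7 genes are shown because they hold the element. Larger rises than some of theirs occurred in genes without a match in the window, such as PHT1;4 and PAP17. They are RefSeq sequence of the TAIR10.1 assembly, written 5′ to 3′ on the gene's strand and ending at the base before the start, with the P1BS letters in capitals.
AT4 (chr5:894332-894581, plus strand): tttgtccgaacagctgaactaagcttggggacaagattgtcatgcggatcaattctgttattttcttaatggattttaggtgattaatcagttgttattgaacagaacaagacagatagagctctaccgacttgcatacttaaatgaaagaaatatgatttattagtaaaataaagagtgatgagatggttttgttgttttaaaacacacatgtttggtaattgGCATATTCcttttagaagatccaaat
SPX3 (chr2:18606160-18606409, plus strand): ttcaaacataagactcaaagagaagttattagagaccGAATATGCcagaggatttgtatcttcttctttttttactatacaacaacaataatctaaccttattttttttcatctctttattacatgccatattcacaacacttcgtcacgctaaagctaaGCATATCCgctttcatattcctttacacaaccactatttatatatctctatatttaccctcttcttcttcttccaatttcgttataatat
MGD2 (chr5:6896213-6896462, plus strand): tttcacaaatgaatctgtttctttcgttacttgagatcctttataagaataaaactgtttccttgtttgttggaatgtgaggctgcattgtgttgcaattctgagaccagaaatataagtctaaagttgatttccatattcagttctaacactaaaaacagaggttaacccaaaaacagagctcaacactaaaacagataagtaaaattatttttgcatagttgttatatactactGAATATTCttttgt
PLDP2 (chr3:1634944-1635193, plus strand): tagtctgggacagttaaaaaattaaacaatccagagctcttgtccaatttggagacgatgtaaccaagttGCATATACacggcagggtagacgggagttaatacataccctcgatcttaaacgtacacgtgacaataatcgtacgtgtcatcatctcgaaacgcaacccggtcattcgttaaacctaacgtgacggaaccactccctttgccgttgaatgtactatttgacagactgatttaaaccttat
NPC4 (chr3:845097-845346, minus strand): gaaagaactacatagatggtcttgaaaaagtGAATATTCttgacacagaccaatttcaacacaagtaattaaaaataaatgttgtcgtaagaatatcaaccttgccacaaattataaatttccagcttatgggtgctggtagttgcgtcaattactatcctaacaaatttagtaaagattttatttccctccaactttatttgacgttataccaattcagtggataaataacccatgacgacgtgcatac
GDPD1 (chr3:350011-350260, minus strand): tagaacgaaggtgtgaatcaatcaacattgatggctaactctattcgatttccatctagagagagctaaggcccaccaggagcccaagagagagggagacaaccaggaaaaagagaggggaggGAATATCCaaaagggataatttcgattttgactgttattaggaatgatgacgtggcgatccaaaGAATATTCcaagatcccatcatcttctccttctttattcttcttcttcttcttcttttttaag
PS2 (chr1:27466349-27466598, minus strand): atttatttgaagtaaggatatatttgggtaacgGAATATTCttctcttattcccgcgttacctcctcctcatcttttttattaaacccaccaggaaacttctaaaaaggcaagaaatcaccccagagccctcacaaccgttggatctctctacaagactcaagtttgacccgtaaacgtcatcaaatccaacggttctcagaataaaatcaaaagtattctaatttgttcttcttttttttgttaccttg
In AT4 the element begins at position −26 and in MGD2 at −14, counted from the transcript start. PLDP2 holds it at −180, NPC4 at −219 and PS2 at −217. SPX3 (−213 and −90) and GDPD1 (−127 and −63) hold a pair of matches each.

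Sulfur-deficiency genes were the second block. Of 16 tested members (SULTR1;1 was too low) 15 rose and 1 fell, with a median of 1.90, and 15 rose with any 1 library left out. LSU1 (AT3G49580), a small protein named for its response to low sulfur, had 54.4, 80.8 and 57.9 CPM in cat2shr, against 1.44, 1.58 and 1.92 CPM in cat2 (log2 fold change 5.28 ± 0.23 SE, adjusted p = 8.22e-12). SDI1 (AT5G48850), which limits glucosinolate synthesis when sulfur is short, had 77.3, 112 and 83.8 CPM in cat2shr, against 3.89, 7.55 and 6.24 CPM in cat2 (log2 fold change 3.95 ± 0.28 SE, adjusted p = 9.46e-09). BGLU28 (AT2G44460), a glucosidase that releases sulfur from glucosinolates, had 23, 52.7 and 35.2 CPM in cat2shr, against 1.11, 0.674 and 0.959 CPM in cat2 (log2 fold change 5.33 ± 0.46 SE, adjusted p = 1.56e-07). The lowest cat2shr library was above the highest cat2 library in each of these genes.

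Sulfate transport and assimilation moved less. SULTR1;2 (AT1G78000), a high-affinity sulfate transporter, had 23.4, 22.9 and 17.6 CPM in cat2shr, against 4.8, 5.46 and 3.84 CPM in cat2 (log2 fold change 2.18 ± 0.18 SE, adjusted p = 5.46e-08). SULTR4;2, which exports sulfate from the vacuole, had 70.6, 79.9 and 73.1 CPM in cat2shr, against 27.1, 34.1 and 28.7 CPM in cat2 (log2 fold change 1.31 ± 0.11 SE, adjusted p = 4.73e-08). The APS reductases rose by 0.97 (APR1), 0.87 (APR2) and 1.19 (APR3), and GGCT2;1, which breaks down glutathione, by 2.53. APS1, an ATP sulfurylase and the member that fell, did so by 0.65 with adjusted p = 0.029, and it did not pass the test without cat2 replicate 2 (−0.57) or 3 (−0.65) or without cat2shr replicate 1 (−0.52) or 3 (−0.62). Among vascular sulfate transporters, listed with the vein genes, SULTR2;1 had 40.5, 53 and 41.9 CPM in cat2shr, against 138, 108 and 108 CPM in cat2 (log2 fold change −1.39 ± 0.17 SE, adjusted p = 5.25e-06), and SULTR2;2 rose by 1.16. 

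In shr against Col-0 15 sulfur genes were higher and 0 lower, with a median of 2.97. The difference between backgrounds passed the test downward for 10 of the 16 genes, among them LSU1 (difference −2.21) and SDI1 (−1.59). LSU1 averaged 55.5 CPM in shr, about the level of cat2shr, and 0.302 CPM in Col-0, below its level in cat2. SDI1 averaged 65.8 CPM in shr and 1.43 CPM in Col-0. The count of 10 varied from 5 to 11 with 1 library left out, with 5 without Col-0 replicate 1 or cat2 replicate 2 and 6 without shr replicate 2, and was 4 when only the 4 groups at 0 h entered the fit.

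Iron-deficiency genes were higher in part. Of 24 tested members 13 rose and 1 fell (10 to 13 rose with 1 library left out), with a median of 0.65. Called members made up 58.3%, against 34.9% of all tested genes. BHLH38, a subgroup Ib factor, had 111, 53.1 and 73.9 CPM in cat2shr, against 8.22, 24.1 and 18.9 CPM in cat2 (log2 fold change 2.22 ± 0.51 SE, adjusted p = 0.00301), and BHLH39 had 62.2, 33.9 and 54.4 CPM in cat2shr, against 6.64, 19.8 and 17.5 CPM in cat2 (log2 fold change 1.78 ± 0.46 SE, adjusted p = 0.0062). AT1G47395, an uncharacterized protein listed with these genes, had 120, 72.8 and 89.9 CPM in cat2shr, against 8.75, 25.8 and 20.1 CPM in cat2 (log2 fold change 2.37 ± 0.38 SE, adjusted p = 0.000149). In each of these genes cat2 replicate 1 was the lowest and cat2shr replicate 1 the highest of the 6 libraries. Iron handling in the shoot showed tighter values: NAS4, a nicotianamine synthase, had 43.1, 31.2 and 37.2 CPM in cat2shr, against 11.9, 10.9 and 7.96 CPM in cat2 (log2 fold change 1.86 ± 0.24 SE, adjusted p = 1.17e-05), and OPT3, which loads iron into the phloem, had 458, 391 and 407 CPM in cat2shr, against 181, 218 and 218 CPM in cat2 (log2 fold change 1.03 ± 0.14 SE, adjusted p = 2.13e-05). FER4, an iron-storing ferritin, was the member that fell, with 4.96, 8.01 and 5.77 CPM in cat2shr, against 18.8, 15.4 and 15.6 CPM in cat2 (log2 fold change −1.41 ± 0.23 SE, adjusted p = 0.000107). The uptake regulator FRU, PYE and ferritin FER1 did not pass the test, and IRT1, the root iron transporter, was at 0.195 to 0.584 CPM in cat2shr with no counts in cat2. No iron gene passed the test of the difference between backgrounds, and 12 were higher and 2 lower in shr against Col-0.

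Nitrogen genes changed individually rather than as a block: 10 of 22 tested rose and 2 fell (54.5% called, against 34.9% of all tested genes). NRT1.8, which withdraws nitrate from the xylem, had 11, 36.9 and 22.2 CPM in cat2shr, against 0.503, 0.674 and 0.863 CPM in cat2 (log2 fold change 5.09 ± 0.73 SE, adjusted p = 5.5e-05), and NRT1.5, which loads it, had 14.6, 13.4 and 14.1 CPM in cat2shr, against 3.59, 2.12 and 3.77 CPM in cat2 (log2 fold change 2.15 ± 0.22 SE, adjusted p = 1.08e-06). NRT1.1, the dual-affinity nitrate transporter and sensor, had 21.7, 19.6 and 16.7 CPM in cat2shr, against 53, 52.9 and 57.7 CPM in cat2 (log2 fold change −1.49 ± 0.11 SE, adjusted p = 1.07e-08). The glutamine synthetase gene GLN1;4 fell by 2.06 and GLN1;2 rose by 0.82. The number that rose ranged from 7 to 11 with 1 library left out.

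Jasmonate genes fell in the cat2 background. Of 26 tested members 19 fell and 1 rose (16 to 19 fell with any 1 library left out), and the median was −2.03. MYC2 (AT1G32640), the leading transcription factor of the pathway, had 33.7, 50.7 and 56.2 CPM in cat2shr, against 207, 330 and 255 CPM in cat2 (log2 fold change −2.49 ± 0.44 SE, adjusted p = 0.000347). JAZ9 (AT1G70700), 1 of the JAZ repressors that jasmonate induces, had 19.9, 26.1 and 33.2 CPM in cat2shr, against 302, 506 and 412 CPM in cat2 (log2 fold change −3.95 ± 0.77 SE, adjusted p = 0.000831). JAZ5, of the same family, had 0.681, 2.07 and 1.17 CPM in cat2shr, against 9.56, 24.2 and 17.7 CPM in cat2 (log2 fold change −3.73 ± 0.77 SE, adjusted p = 0.00124). The groups did not overlap in any of these genes, and cat2 replicate 1 was the lowest of the cat2 libraries in each. Falls were also called for JAZ2 (−2.24), JAZ3 (−1.93), JAZ6 (−2.30), JAZ7 (−3.32), JAZ8 (−3.12), JAZ10 (−2.60) and JAZ1 (−1.22). The JAZ1 call was lost without cat2 replicate 2 (−0.99) or without cat2shr replicate 1 (−1.01) or 3 (−1.17).

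The enzymes of jasmonate synthesis and turnover followed. LOX3 (AT1G17420), a lipoxygenase at the first step, had 12.9, 25.3 and 24.1 CPM in cat2shr, against 52.9, 107 and 101 CPM in cat2 (log2 fold change −2.07 ± 0.44 SE, adjusted p = 0.00152). AOS (AT5G42650), allene oxide synthase, had 141, 119 and 138 CPM in cat2shr, against 412, 561 and 616 CPM in cat2 (log2 fold change −2.00 ± 0.39 SE, adjusted p = 0.000851). OPR3 (AT2G06050), the reductase of the peroxisomal step, had 43.4, 50.4 and 102 CPM in cat2shr, against 221, 349 and 364 CPM in cat2 (log2 fold change −2.25 ± 0.45 SE, adjusted p = 0.00101). The peroxisomal ligase OPCL1 fell by 2.11, the conjugating enzyme JAR1 by 0.63, and CYP94C1, which oxidizes the active conjugate, by 3.59. AT5G05600, annotated as a 2-oxoglutarate and iron-dependent oxygenase and among the 12 largest falls, had 16.4, 29.4 and 32.2 CPM in cat2shr, against 227, 366 and 277 CPM in cat2 (log2 fold change −3.48 ± 0.70 SE, adjusted p = 0.000969). VSP1, a storage protein and common output of the pathway, had 6.78, 12.1 and 5.49 CPM in cat2shr, against 37.4, 74.4 and 78.8 CPM in cat2 (log2 fold change −2.97 ± 0.62 SE, adjusted p = 0.00137).

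PDF1.2, a defensin of the branch shared by jasmonate and ethylene, was the member that rose. It had 15.7, 24.7 and 15.4 CPM in cat2shr, against 2.41, 2.7 and 0.959 CPM in cat2 (log2 fold change 3.21 ± 0.57 SE, adjusted p = 0.00035), and averaged 15 CPM in shr and 0.841 CPM in Col-0. LOX2 (−0.65) did not pass the test.

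**Figure D4:**
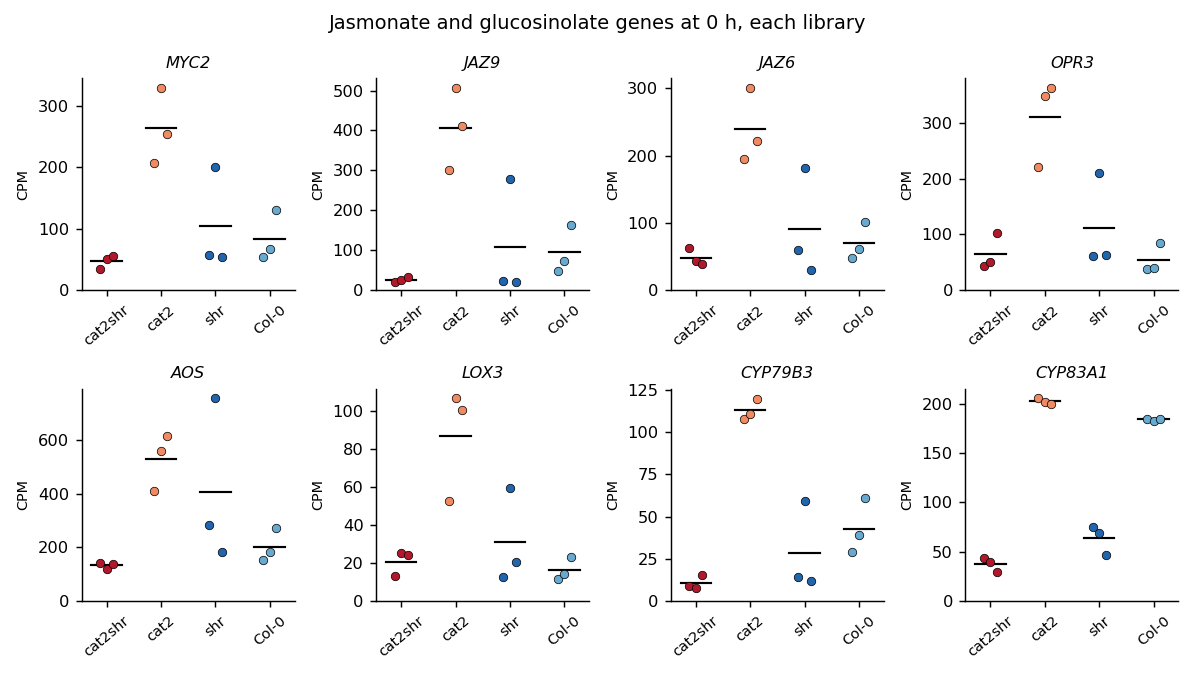
CPM per library at 0 h of MYC2, JAZ9, JAZ6, OPR3, AOS, LOX3, CYP79B3 and CYP83A1, with 1 point per library and a line at the mean, in the order cat2shr, cat2, shr and Col-0. The cat2 mean stands highest in each gene, shr replicate 2 stands apart from the other shr libraries in all but CYP83A1, and cat2shr is below cat2 in all 8.

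The SHR contrast ran differently for jasmonate genes in the 2 backgrounds. In shr against Col-0, 14 of the 26 were higher and 0 lower, with a median of 1.41, and the difference between the contrasts passed the test for 23 genes, in each of them downward. The shr side rests on 1 library in part: without shr replicate 2, 9 genes were higher and 2 lower, and the median was 0.40. MYC2 averaged 104 CPM in shr and 84.1 CPM in Col-0 (log2 0.31), and its difference between backgrounds was −2.80. JAZ9 had 22.1, 279 and 20.3 CPM in shr, against 48.7, 72.6 and 163 CPM in Col-0, and its difference was −4.12 (adjusted p = 0.0245). In JAZ9 the second shr library alone was near the cat2 libraries, and the remaining shr libraries were at the level of cat2shr. AOS had 285, 760 and 182 CPM in shr, against 151, 182 and 273 CPM in Col-0, so that its cat2shr libraries, at 119 to 141 CPM, lay below every library of the other groups at 0 h.

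Libraries differed here. Over the jasmonate list shr replicate 2 stood 1.54 log2 units above the other shr replicates, Col-0 replicate 3 0.59 above the other Col-0 replicates, and cat2 replicate 1 0.48 below the other cat2 replicates, and their part in the result was tested only by leaving each out. Between 19 and 24 genes passed the test of the difference with 1 library left out, and 6 when only the 4 groups at 0 h were fitted. At 24 h of stress 3 jasmonate genes were higher and 3 lower in cat2shr against cat2 (among all tested genes, 27.0% and 28.1%). The lower count was 1 without cat2 replicate 1 or cat2shr replicate 3 of that time, and 10 when only those 2 groups were fitted. The change of the contrast over time passed the test upward for 14 genes and downward for 1 (30.9% of all tested genes passed it, 15.6% upward and 15.4% downward).

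**Figure D5:**
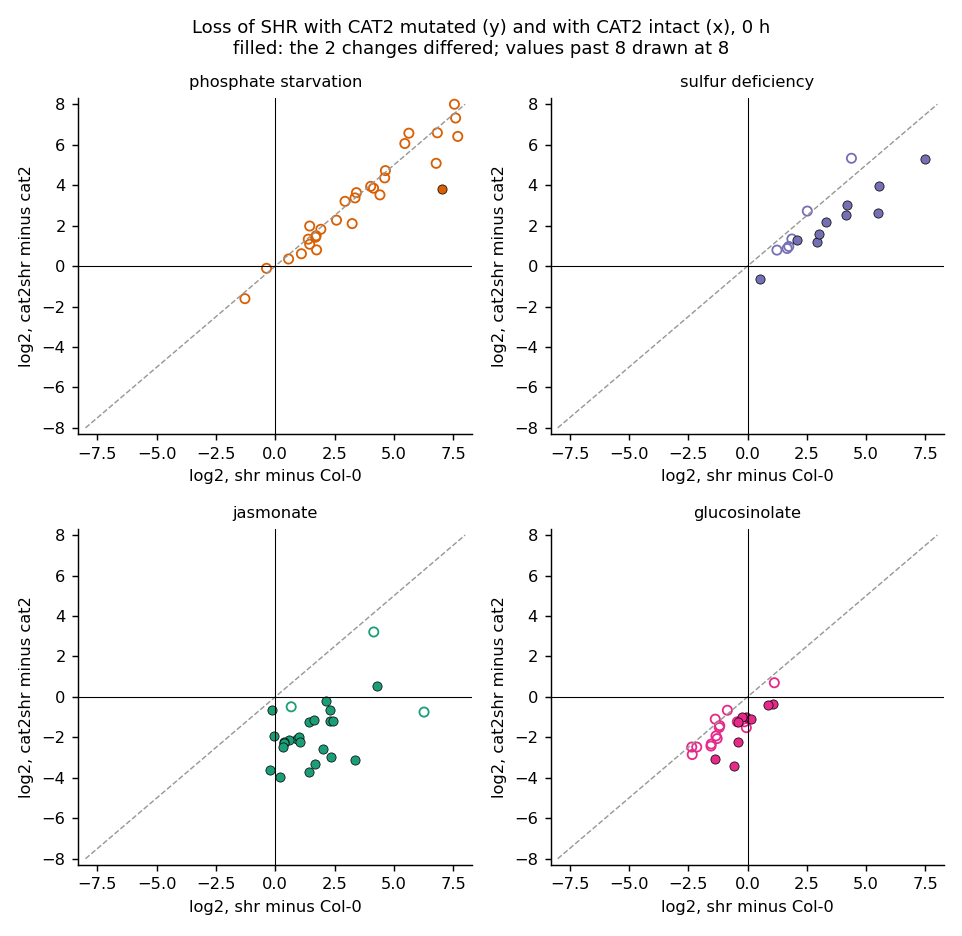
Log2 fold changes at 0 h, cat2shr over cat2 upward and shr over Col-0 across, in 4 panels of gene lists, with 1 point per tested gene. Filled points passed the test of the difference between backgrounds, the dashed line marks equal values, and values past 8 are drawn at 8: phosphate genes lie along the line, and jasmonate genes below it.

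Glucosinolate synthesis, a sulfur-rich defence pathway that MYC2 and MYB factors switch on, fell at most of its steps. Of 24 tested genes 21 fell (20 or 21 with any 1 library left out) and 1, MYB51, was called higher (0.70, adjusted p = 0.043). The MYB51 call was lost without cat2 replicate 3 (0.43) or without cat2shr replicate 1 (0.43) or 2 (0.67). The median was −1.47. Regulators came first: MYB34, of the indolic branch, had 9.11, 8.22 and 11.9 CPM in cat2shr, against 38.1, 44.1 and 56.1 CPM in cat2 (log2 fold change −2.24 ± 0.31 SE, adjusted p = 3.24e-05), and MYB76, of the aliphatic branch, had 0.551, 0.435 and 0.343 CPM in cat2shr, against 3.99, 3.03 and 2.69 CPM in cat2 (log2 fold change −2.85 ± 0.32 SE, adjusted p = 2.21e-06). MYB29 fell by 1.1 and MYB28 by 0.66, and the MYB28 call was lost without cat2 replicate 1 (−0.59) or 3 (−0.60) or without cat2shr replicate 2 (−0.59) or 3 (−0.61).

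In the aliphatic branch, BCAT4, which starts the methionine chain elongation, had 13.9, 18.8 and 17.7 CPM in cat2shr, against 106, 92.5 and 82.7 CPM in cat2 (log2 fold change −2.48 ± 0.37 SE, adjusted p = 6.58e-05), and MAM1, of the same cycle, fell by 1.42. CYP83A1, which acts on the aldoximes of this branch, had 43.9, 39.9 and 29.1 CPM in cat2shr, against 206, 202 and 200 CPM in cat2 (log2 fold change −2.43 ± 0.29 SE, adjusted p = 6.96e-06). CYP79F1 and CYP79F2, near-identical genes that make those aldoximes, fell by 1.93 and 3.06, with their split uncertain. In the indolic branch CYP79B3 had 8.92, 7.5 and 15.3 CPM in cat2shr, against 108, 111 and 120 CPM in cat2 (log2 fold change −3.41 ± 0.49 SE, adjusted p = 5.45e-05), and CYP79B2 fell by 1.52. Later steps of the pathway changed with small errors: SOT18, a sulfotransferase, had 37.1, 35.5 and 31.3 CPM in cat2shr, against 86.9, 82.7 and 72.4 CPM in cat2 (log2 fold change −1.22 ± 0.11 SE, adjusted p = 1.32e-07), and SUR1 and UGT74B1 fell by 1.01 and 1.07. CYP83B1 (−0.40) and MAM3 (−0.35) did not pass the test. In shr against Col-0 13 of the 24 were lower and 3 higher, with a median of −0.72. The difference between backgrounds passed the test downward for 9 genes, CYP79B3 (−2.83) and MYB34 (−1.82) among them. CYP79B3 itself was not called in shr against Col-0 (−0.59). The count of 9 became 6 without Col-0 replicate 1 and 3 when only the 4 groups at 0 h were fitted. At 24 h 6 were higher and 3 lower in cat2shr against cat2 (among all tested genes, 27.0% and 28.1%).

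The G-box, CACGTG on either strand, to which MYC2 binds, was found in the 250 bases before 5 of the 19 jasmonate genes that fell (26.3%), against 1485 of 19972 genes (7.44%). It was present before 116 of 862 genes lower by at least 2-fold (13.5%) and before 45 of 786 higher by as much (5.73%). A high share was not particular to the jasmonate genes. The G-box stood before 38.9% of the tested endoplasmic reticulum genes, 35.3% of the clock genes and 30.8% of the iron genes that rose. Among the phosphate genes that rose the share was 3.85%. The core of the WRKY site, TTGAC on either strand, was present before 44.9% of all tested genes. Matches of the different motifs were counted separately.

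Genes that respond to hydrogen peroxide were examined because cat2 is the reference. Of 27 tested members of the oxidative-stress list 2 changed, both downward, with a median of −0.26 (7.41% called, against 34.9% of all tested genes). AT2G21640, annotated as a marker for oxidative stress response protein, had 7.17, 10 and 6.97 CPM in cat2shr, against 18.5, 23 and 18.1 CPM in cat2 (log2 fold change −1.31 ± 0.30 SE, adjusted p = 0.00294), and WRKY40 was called at −1.54. The WRKY40 call was lost without cat2 replicate 1 (−1.53) or 2 (−1.43) or without cat2shr replicate 1 (−1.46) or 3 (−1.23). The list's summed level was 666 to 1988 CPM in cat2shr, 1149 to 1513 CPM in cat2, 439 to 1085 CPM in shr and 212 to 277 CPM in Col-0. UGT74E2, a glucosyltransferase sensitive to hydrogen peroxide, had 13.8, 93.2 and 39.6 CPM in cat2shr, against 103, 90.7 and 63.1 CPM in cat2 and did not pass the test (−0.81). The cat2shr libraries were spread widely here, with replicate 2 standing 0.99 log2 units above the other replicates, and 7 genes fell when it was left out. In shr against Col-0 24 of the 27 were higher, with a median of 2.82, and the difference between backgrounds passed for 14 genes, a count that ranged from 6 (without Col-0 replicate 1 or 2) to 23 (without shr replicate 1) and was 2 when only the 4 groups were fitted.

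Antioxidant enzymes changed individually, 4 higher and 5 lower of 24 (1 higher without cat2 replicate 3 or without cat2shr replicate 2). The share called, 37.5%, was near the 34.9% of all tested genes. APX1, the cytosolic ascorbate peroxidase, had 779, 948 and 834 CPM in cat2shr, against 1292, 1375 and 1412 CPM in cat2 (log2 fold change −0.67 ± 0.18 SE, adjusted p = 0.00822), against means of 189 CPM in shr and 160 CPM in Col-0. TAPX, the thylakoid enzyme, had 115, 104 and 108 CPM in cat2shr, against 188, 185 and 186 CPM in cat2 (log2 fold change −0.78 ± 0.11 SE, adjusted p = 2.42e-05). CSD2, the chloroplast copper/zinc superoxide dismutase, had 14.2, 15 and 12.9 CPM in cat2shr, against 34.1, 90.4 and 61.4 CPM in cat2 (log2 fold change −2.15 ± 0.36 SE, adjusted p = 0.000211). DHAR1, a dehydroascorbate reductase, had 153, 106 and 109 CPM in cat2shr, against 297, 332 and 361 CPM in cat2 (log2 fold change −1.43 ± 0.22 SE, adjusted p = 8.56e-05), whereas DHAR2 rose by 1.04. CAT1 and CAT3, the other catalase genes, did not pass the test.

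Among 15 tested glutaredoxin genes of the plant-specific CC type 3 rose and 5 fell (53.3% called, against 34.9% of all tested genes). AT3G21460, annotated as a glutaredoxin family protein, had no counts in cat2shr and 2.51, 2.7 and 3.29 CPM in cat2, at least 82.7-fold lower against a floor of 3 counts over the cat2shr group. AT3G62950, annotated as a thioredoxin superfamily protein, had 0, 0.181 and 0.378 CPM in cat2shr, against 5.1, 7.04 and 7.87 CPM in cat2 (log2 fold change −5.16 ± 0.45 SE, adjusted p = 1.11e-07). Both were as low in shr, with means of 0.0184 and 0.0379 CPM, against 1.78 and 6.22 CPM in Col-0. AT1G03020 rose, with 4.9, 6.45 and 5.84 CPM in cat2shr, against 1.34, 2.63 and 0.991 CPM in cat2. Of 34 glutathione S-transferases 9 rose and 3 fell (4 to 9 rose with 1 library left out, and fewest without cat2 replicate 1 or 3 or cat2shr replicate 2). The share called, 35.3%, was near the 34.9% of all tested genes. GSTF2 had 955, 475 and 369 CPM in cat2shr, against 159, 241 and 131 CPM in cat2 (log2 fold change 1.76 ± 0.33 SE, adjusted p = 0.00048), and GSTF11 had 2.17, 2.17 and 2.92 CPM in cat2shr, against 12, 12.3 and 8.54 CPM in cat2 (log2 fold change −2.17 ± 0.38 SE, adjusted p = 0.000277).

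Salicylate defence was uneven between libraries. Of 29 tested genes 11 rose and 1 fell, with a median of 0.67 (41.4% called, against 34.9% of all tested genes). However, 6 rose without cat2shr replicate 1, 7 without cat2 replicate 1 and 7 without cat2 replicate 3. PR1, a secreted defence protein, had 127, 17.1 and 75.5 CPM in cat2shr, against 1.14, 25.6 and 1.18 CPM in cat2, and was called at 2.98 with adjusted p = 0.041. With a replicate block its adjusted p was 0.0648, and it did not pass the test without cat2 replicate 1 or 3 (2.45 each) or without cat2shr replicate 1 (2.32) or 3 (2.95). Its groups overlapped, since cat2 replicate 2 had more than cat2shr replicate 2. SARD1, a regulator of salicylate synthesis, had 15.4, 8.8 and 9.2 CPM in cat2shr, against 2.85, 5.29 and 2.27 CPM in cat2 (log2 fold change 1.68 ± 0.36 SE, adjusted p = 0.00137), and WRKY38 had 2.5, 0.507 and 1.06 CPM in cat2shr, against 0.101, 0.0674 and 0.032 CPM in cat2 (log2 fold change 4.29 ± 0.67 SE, adjusted p = 8.36e-05). ICS1, EDS1, PAD4 and NPR1, at the core of the pathway, did not pass the test. Chaperones of the endoplasmic reticulum moved less and more evenly: 12 of 18 rose and 1 fell, with a median of 0.43. BIP2 had 175, 151 and 161 CPM in cat2shr, against 93, 91.4 and 91 CPM in cat2 (log2 fold change 0.82 ± 0.14 SE, adjusted p = 0.000174), and PDIL1-1, a protein disulfide isomerase, had 237, 212 and 214 CPM in cat2shr, against 141, 141 and 135 CPM in cat2 (log2 fold change 0.67 ± 0.09 SE, adjusted p = 1.12e-05). The transcription factors BZIP60 and BZIP28 of the unfolded protein response did not pass the test.

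Of 16 tested members of the SHR network, SHR included, 5 fell and 1 rose (37.5% called, against 34.9% of all tested genes). SCR had 34.6, 29.5 and 27.8 CPM in cat2shr, against 32, 32.4 and 31.1 CPM in cat2 (−0.06, adjusted p = 0.6). SCL23 (AT5G41920), a relative of SCR active with it in the bundle sheath, had 7.46, 6.81 and 6.39 CPM in cat2shr, against 17, 14.1 and 15.6 CPM in cat2 (log2 fold change −1.18 ± 0.16 SE, adjusted p = 1.62e-05). CYCD6;1, a cyclin that SHR and SCR switch on in roots, had 2.01, 2.14 and 1.89 CPM in cat2shr, against 4.63, 3.88 and 2.97 CPM in cat2 (log2 fold change −0.93 ± 0.20 SE, adjusted p = 0.00125). JKD fell by 0.72, a call that was lost without cat2 replicate 1 (−0.48, adjusted p = 0.0576), and NUC rose by 1.03. In shr against Col-0 7 were lower and 1 higher, and no member passed the test of the difference between backgrounds. Of 12 vein and bundle-sheath genes 3 rose and 3 fell (50% called), and 2 of 5 tested suberin and endodermis genes fell (40%).

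More cell-division genes fell than rose in cat2shr at 0 h. Of 29 tested 15 fell and 2 rose (11 to 15 fell with 1 library left out), with a median of −0.28. Calls covered 58.6% of the list, against 34.9% of all tested genes. Rises numbered 4 with only the 6 libraries fitted, 6 with DESeq2 and 7 with a replicate block. All cat2shr libraries lay above all cat2 libraries in 9 of the 29 genes, and below them in 17 (21.0% and 22.8% of all tested genes). Mitotic genes led: KNOLLE, the syntaxin of the cell plate, had 12.2, 12 and 14.1 CPM in cat2shr, against 28.9, 26 and 25 CPM in cat2 (log2 fold change −1.06 ± 0.15 SE, adjusted p = 3.92e-05), and CYCB1;1, a mitotic cyclin, had 3.63, 4.02 and 6.32 CPM in cat2shr, against 9.69, 14.3 and 11.5 CPM in cat2 (log2 fold change −1.34 ± 0.23 SE, adjusted p = 0.000168). Helicase subunits of DNA replication did not pass the test, MCM2 having 27.9, 28.1 and 27.9 CPM in cat2shr, against 24.4, 18.9 and 23.9 CPM in cat2 (0.32). CYCD3;3, a G1 cyclin, was the clearest rise, with 20.2, 19.6 and 19.5 CPM in cat2shr, against 8.62, 8.12 and 8.7 CPM in cat2 (log2 fold change 1.22 ± 0.12 SE, adjusted p = 3.97e-07). Meristem markers summed to 95.4 to 105 CPM in cat2shr and 155 to 170 CPM in cat2, with 3 of 7 tested lower (42.9% called). The markers' part in these falls was not tested. In shr against Col-0 17 division genes were lower and 1 higher.

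Cell-cycle inhibitors and DNA-damage genes were examined as a separate list, in which 8 of 14 fell and 2 rose, with a median of −0.58. Calls covered 71.4% of the list, against 34.9% of all tested genes. SMR5, an inhibitor of cyclin-dependent kinases that reactive oxygen induces, had 0.259, 0.797 and 0.652 CPM in cat2shr, against 2.48, 7.21 and 4.67 CPM in cat2 (log2 fold change −3.08 ± 0.53 SE, adjusted p = 0.000231). In shr it averaged 0.475 CPM and in Col-0 0.0695 CPM, and the difference between backgrounds was −5.83 (adjusted p = 0.00413). That Col-0 mean rests on few counts, so the size of the difference is uncertain. The test of the difference passed for 3 genes of the list, and for 1 when any of several single libraries, Col-0 replicate 1 and cat2 replicate 2 among them, was left out. PARP2, a poly(ADP-ribose) polymerase, had 6.16, 8.22 and 12.1 CPM in cat2shr, against 18, 28.4 and 21.9 CPM in cat2 (log2 fold change −1.37 ± 0.20 SE, adjusted p = 4.11e-05). At 24 h 12 of the 14 were lower and 1 higher in cat2shr against cat2 (among all tested genes, 28.1% and 27.0%). The median was −2.63.

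In the chloroplast lists, 13 of 35 photosynthesis genes fell and 3 rose, with a median of −0.21. Called genes made up 45.7%, against 34.9% of all tested genes. The fallen count was 8 without cat2shr replicate 3. LHB1B1, an antenna protein, had 949, 1352 and 1061 CPM in cat2shr, against 1825, 2310 and 2546 CPM in cat2 (log2 fold change −0.99 ± 0.18 SE, adjusted p = 0.000336), and PSAF, of photosystem I, had 1648, 1680 and 1447 CPM in cat2shr, against 2823, 2699 and 2592 CPM in cat2 (log2 fold change −0.77 ± 0.13 SE, adjusted p = 0.000254). The small subunits of Rubisco went the other way, RBCS1A with 12412, 13079 and 10846 CPM in cat2shr, against 8099, 8266 and 8315 CPM in cat2 (log2 fold change 0.56 ± 0.14 SE, adjusted p = 0.00358) and RBCS1B with a rise of 0.93. LHB1B1 and the RBCS genes have near-identical copies, so the split of reads between copies is uncertain. HEMA1, which controls the entry into chlorophyll synthesis, had 61.6, 89.1 and 44.3 CPM in cat2shr, against 174, 189 and 171 CPM in cat2 (log2 fold change −1.45 ± 0.21 SE, adjusted p = 4.73e-05). Photorespiration, the source of the peroxide that CAT2 removes, had small changes, with 3 of 23 genes higher and 4 lower, all between −0.62 and 0.44. The share called was 30.4%, against 34.9% of all tested genes. Guard-cell markers summed to 175 to 215 CPM in cat2shr and 231 to 266 CPM in cat2, and 8 of 13 were lower, KAT2 by 1.43 (adjusted p = 2.2e-06).

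Genes of low oxygen fell in part: 7 of 14 were lower and 1 higher, with a median of −1.0. Calls covered 57.1% of the list, against 34.9% of all tested genes. With 1 library left out 4 to 6 were lower, and fewest without cat2 replicate 2 or cat2shr replicate 1 or 2. LBD41, a transcription factor of that response, had 5.42, 5.11 and 9.31 CPM in cat2shr, against 24.3, 35.1 and 35.4 CPM in cat2 (log2 fold change −2.26 ± 0.37 SE, adjusted p = 0.000164), with means of 1.14 CPM in shr and 1.05 CPM in Col-0. HB1, a non-symbiotic haemoglobin, had 1.75, 15.4 and 22.5 CPM in cat2shr, against 32.8, 77.8 and 57.7 CPM in cat2, with its lowest cat2shr value in replicate 1.

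Most of the strong rises, and fewer of the strong falls, were shared with the shr single mutant. The contrasts at 0 h have no library in common. Of the 811 genes higher by at least 2-fold in cat2shr, 668 (82.4%) were also called higher in shr against Col-0, 0 were called lower, and 143 were not called. At 2-fold in both, 602 genes were shared, which is 74.2% of the 811 and 37.1% of the 1623 genes higher by as much in shr (7.98% of all tested). Of the 889 genes lower by at least 2-fold, 505 (56.8%) were called lower in shr, 58 were called higher, and 326 were not called. At 2-fold in both, 405 were shared, 45.6% of the 889 and 48.6% of the 833 lower by as much in shr (4.09% of all tested). The test of the difference passed for 65 of the 811 (8.01%) and 191 of the 889 (21.5%).

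Over all genes the difference between backgrounds passed for 1008, 274 upward (1.35%) and 734 downward (3.61%). Differences of at least 2-fold numbered 54 upward (0.265%) and 538 downward (2.64%). The largest downward differences were in genes that were higher in shr against Col-0 and did not pass the test in cat2shr against cat2, but for AT4G12735, whose call there (−2.23) was lost with DESeq2 (adjusted p = 0.0711) and without any 1 of 4 libraries. AOX1D, a mitochondrial alternative oxidase, had 5.74, 7.39 and 1.13 CPM in cat2shr, against 12.9, 3 and 1.25 CPM in cat2, and averaged 20.2 CPM in shr and 0.0987 CPM in Col-0 (difference −7.96, adjusted p = 0.0228). TAT3, a tyrosine aminotransferase, had 5.58, 2.14 and 3.19 CPM in cat2shr, against 4.83, 28.1 and 13.2 CPM in cat2, and averaged 29.4 and 0.718 CPM in shr and Col-0 (−7.43, adjusted p = 0.00899). PAD3, the last enzyme of camalexin synthesis, had 31.6, 21.3 and 16.5 CPM in cat2shr, against 11.9, 11.4 and 2.17 CPM in cat2, and averaged 50.5 and 0.149 CPM (−7.00, adjusted p = 0.00949). In all of these genes the cat2 libraries lay above the Col-0 mean. The Col-0 means of AOX1D and PAD3 rest on few counts, so the size and order of these differences are uncertain.

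The largest upward differences were smaller. MYB48 had 18.8, 20.9 and 15.7 CPM in cat2shr, against 5.57, 4.15 and 3.74 CPM in cat2, against means of 12.5 CPM in shr and 10.4 CPM in Col-0 (1.78, adjusted p = 0.000677), so its level was low in cat2 alone. DAA1, annotated as a P-loop nucleoside triphosphate hydrolase, had 2.43, 4.09 and 2.13 CPM in cat2shr, against 10.1, 6.03 and 4.13 CPM in cat2, and averaged 3.74 CPM in shr and 44.3 CPM in Col-0 (2.35, adjusted p = 0.0083).

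Many of the differences present before stress were also present after it. At 24 h, 481 of the 811 genes (59.3%) were called higher in cat2shr against cat2 and 53 were called lower, and of the 889 genes 457 (51.4%) were called lower and 46 higher. Of all tested genes 27.0% were called higher and 28.1% lower at that time. The change of the contrast between 0 h and 24 h passed the test for 6288 genes (30.9%), 3164 upward (15.6%) and 3124 downward (15.4%). Sulfur genes were again mostly higher (15 higher and 0 lower at 24 h, median 2.46), and division genes, with 15 lower at 0 h, were 18 higher and 3 lower at 24 h (1 lower without cat2 replicate 2, cat2shr replicate 2 or cat2shr replicate 3 of that time).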

How the data were processed

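RNA was extracted with TRIzol and RNeasy and made into libraries with the TruSeq Stranded mRNA kit, per the labels' protocols. The authors deposited whole-number read counts per gene for 33602 loci. The submitters' processing notes name Trim Galore 0.3.3, TopHat2 2.1.0, featureCounts of Subread 1.4.6 and the TAIR10 genome. How the counter treated strand, and which annotation release it read, is not given in the sources used here, so antisense and overlapping genes cannot be told apart. Names and products come from RefSeq (TAIR10.1), which matched 32835 loci by locus tag, and 6798 loci had no counts. Of 849 listed loci 798 have their symbol in RefSeq.

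The deposited counts were tested with edgeR 4.0.16 in R 4.3.3 (TMM scaling, filterByExpr, robust quasi-likelihood fit with 8 group means over all 24 libraries, limma 3.58.1 beneath it), which left 20347 genes at a common dispersion of 0.0195. CPM was computed from the counts and TMM-scaled library sizes. On counts simulated for the contrast of cat2shr with cat2 at 0 h (20050 genes), the test recovered 70% of 100 genes changed 2-fold and 94% of 100 changed 4-fold, with 4 false among 168 calls. The simulation changed far fewer genes than were called here and gave all groups the same dispersion for each gene. Its rates therefore need not hold for these data. No pair of replicates at 0 h agreed within counting noise, and the pairs at 24 h were not checked. SE was obtained from the fold change and the square root of its F statistic.

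Members and lists were chosen with earlier results of these data known. Genes were named by a rule: SHR and CAT2, the 12 largest rises and 12 largest falls among called genes with a mean of at least 5 CPM and no overlap, up to 4 called members of each list with the smallest p, and the 5 largest differences in each direction between backgrounds. Other members named in the text were chosen after their values were seen. Alternatives were RLE scaling, library size alone, other filters, DESeq2 1.42.0, a replicate block, only the groups compared, and each library left out.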

Additional observations from a re-analysis of the deposited data

Results flagged for a closer look

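The SHR effect differed between the cat2 and the CAT2 background at 0 h, by the test of the difference itself, for 1008 genes, and the contrast of cat2shr with cat2 differed between 24 h and 0 h for 6288 genes. Upward differences between backgrounds, (cat2shr minus cat2) minus (shr minus Col-0) in log2, were largest for AT2G05540 (2.68), DAA1 (2.35), AT5G22460 (1.88), MYB48 (1.78) and CYP707A2 (1.71). AT2G05540, annotated as a glycine-rich protein, had 13.9, 54.9 and 52.4 CPM in cat2shr, against 29.8, 37.6 and 41.7 CPM in cat2, and averaged 4.95 CPM in shr and 28.7 CPM in Col-0. CYP707A2, an abscisic acid hydroxylase, had 15.7, 8.77 and 14.8 CPM in cat2shr, against 13.5, 21.6 and 19.3 CPM in cat2. Neither of these genes passed the test within the cat2 background.

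Downward differences were largest for AOX1D (−7.96), TAT3 (−7.43), PAD3 (−7.00), AT4G12735 (−6.69) and PMZ (−6.67). PMZ had 2.01, 9.28 and 7.18 CPM in cat2shr, against 9.19, 20.6 and 14.5 CPM in cat2, and averaged 7.44 CPM in shr and 0.174 CPM in Col-0. AT4G12735 had 0.746, 7.65 and 1.92 CPM in cat2shr, against 15.2, 19.9 and 12.8 CPM in cat2, and averaged 5.7 CPM in shr and 0.272 CPM in Col-0. In both of these genes Col-0 had the lowest of the 4 group means. Those Col-0 means rest on few counts, so the sizes of the differences are uncertain.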

How the results depend on the processing

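The count of genes that changed in cat2shr against cat2 was 7105, and it was 7132 with RLE scaling, 6644 with library size alone, 6605 with no filter, 6126 with a 5 CPM filter, 7344 with DESeq2 and 4712 when only the 6 libraries entered the fit. With 1 library left out it lay between 5551 and 6577, of which 5361 to 5782 were among the 7105, and for shr against Col-0 between 7507 and 8885. At 24 h it lay between 9927 and 10994, and for the change over time between 5120 and 7045. The 1008 differences between backgrounds were the least stable result: 282 with only the 4 groups, 1606 with DESeq2, and 524 to 1478 with 1 library left out (577 without Col-0 replicate 1, 524 without Col-0 replicate 2, 644 without cat2 replicate 2 and 547 without shr replicate 2). With library size alone 9.07% of these calls were upward, against 27.2% with TMM, and 60.6% of the shr calls were upward, against 46.9%. Leaving out the shr and cat2shr libraries of number 1 together, chosen after seeing the data, gave 6835 and 1296. The cause of these shifts was not tested. With a replicate block the counts were 7548, 9602 for shr against Col-0, 1246 and 6713. Same-numbered libraries of cat2shr and cat2 correlated at 0.15, 0.04 and 0.35, and those of shr and Col-0 at 0.14, −0.04 and 0.07. Each cat2shr library correlated best with its own cat2 number, a hint from the data, but for replicate 2 only by 0.04 against 0.03. In other pairs of groups the own number was not always best. Same-numbered cat2shr and shr libraries correlated at 0.2, 0.37 and −0.07, and cat2shr and cat2 at 24 h at −0.04, 0.18 and 0.25. The labels do not tie equal numbers to a shared plate or batch, so whether they pair the libraries is not known. Of the 171 called genes that the rule named, 27 lost their call in at least 1 alternative and 144 kept it in each alternative that tested them, since a stricter filter left 157 of the 171 and fitting only the 6 libraries 168. With only the 6 libraries fitted, rises numbered 4 in place of 11 for salicylate, 5 in place of 9 for glutathione S-transferases and 6 in place of 10 for nitrogen, and falls 4 in place of 7 for low oxygen, 5 in place of 8 for the DNA-damage list and 3 in place of 5 for the SHR network. Signs turned only for genes that did not pass the test: CAT2 (−0.00 to 0.37 with 1 library left out, the lowest without cat2shr replicate 1), WOX5 (−0.12 to 0.64, with −0.03 without cat2 replicate 1), AT2G05540 (−0.14 to 0.57, with −0.07 without cat2shr replicate 3), and AOX1D (−0.74 to 1.17, with 0.21 without cat2shr replicate 3). Small changes of genes with few counts are limited by depth and by 3 libraries a group.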

Other observations

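Hormone and development lists outside the groups above changed in part, where 34.9% of all tested genes were called, 17.2% higher and 17.8% lower. Of 19 cytokinin genes 1 rose and 7 fell: AHP4, a phosphotransfer protein, had 11.1, 8.12 and 7.18 CPM in cat2shr, against 1.58, 1.21 and 1.34 CPM in cat2, and the cytokinin oxidase CKX4 fell by 1.69. Of 22 auxin genes 9 fell and 1 rose (5 to 7 fell with 1 library left out, and fewest without cat2 replicate 3 or cat2shr replicate 1), with IAA19, an early response gene, at 3.21, 2.72 and 2.99 CPM in cat2shr, against 7.95, 6.74 and 7.32 CPM in cat2. FT, the mobile flowering signal, was at 0.0649, 0.0362 and 0 CPM in cat2shr, against 0.369, 0.472 and 0.288 CPM in cat2, few counts in any library, and 6 of 13 flowering genes fell and 2 rose. Of 22 gibberellin and brassinosteroid genes 7 fell and 2 rose, the reductase DET2 by 0.72.

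Of 17 clock genes 10 fell and 1 rose, but 4 to 10 fell with 1 library left out, and the lowest counts came without cat2 replicate 2 or cat2shr replicate 3. Of 22 abscisic acid and dehydration genes 7 rose and 2 fell (3 to 8 rose with 1 library left out, and fewest without cat2 replicate 2 or 3 or cat2shr replicate 3), COR47 with 476, 423 and 509 CPM in cat2shr, against 298, 226 and 194 CPM in cat2. Wax synthesis had 5 of 16 genes higher, CER6 by 0.80 and CER4 by 2.1, and 1 lower (2 to 6 higher with 1 library left out, and fewest without cat2 replicate 2). Among 13 aquaporins 3 fell and 1 rose, and PIP2;2 had 8.53, 12.6 and 8.79 CPM in cat2shr, against 33.1, 34.9 and 44.9 CPM in cat2. STP1, a hexose transporter, had 76.8, 71.5 and 59.2 CPM in cat2shr, against 163, 156 and 133 CPM in cat2, in a sugar and starch list with 5 of 32 higher and 5 lower (3 to 7 lower with 1 library left out). Few genes passed the test in the lists for heat shock (1 of 21, higher), camalexin (1 of 11, higher), lignified xylem (1 of 13, lower) and flavonoids (1 of 21 higher and 1 lower). The calls of HSP18.2 (heat shock; adjusted p = 0.0601 with DESeq2 and 0.052 with a replicate block), IRX12 (xylem) and FLS1 (flavonoids, higher) were each lost with library size alone and without any 1 of several libraries, cat2 replicate 1 among them (0.81, −0.18 and 0.27 in log2 without it).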
